A study of Mus musculus with 30 samples.

Results

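The mRNAs of the nuclear-encoded subunits of the mitochondrial respiratory chain and ATP synthase were followed in mouse sperm after treatment with tesaglitazar. Genes were chosen by symbol from the table of polyadenylated RNA made 24 h after the last injection. Names starting with Uqcr or Atp5 were taken, with Cox4 to Cox8, with Cyc1, Cycs or Cyct, with Sdha to Sdhd, and with Nduf followed by a, b, c, s or v and a digit. Pseudogene names holding -ps were left out. This gave 84 of the 16242 features of that table, which holds genes and repeat families, and 3 of these names were also among the 3082 features of the table made at 46 days.

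The study asked whether a drug that activates PPARα and PPARγ, nuclear receptors for lipids, alters the RNA of sperm. Male C57Bl/6J mice, 3 months old, received tesaglitazar (TESA) at 10 µg per kg or its vehicle, DMSO in saline (CTRL), i.p. 2 times a week over 4 weeks. Sperm that swam up from the cauda epididymis was treated to lyse somatic cells. At 24 h, polyadenylated RNA was sequenced from 4 TESA libraries (replicates 1, 3, 5 and 7) and 4 CTRL libraries (2, 4, 6 and 8). At 46 days, RNA depleted of ribosomal RNA was sequenced from 7 TESA libraries (1 to 5, 11 and 12) and 7 CTRL libraries (6 to 10, 13 and 14). Time and library type therefore cannot be told apart, and no comparison was made between the tables. The labels name samples only, so p-values measure the spread between these samples.

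Total estimated counts at 24 h were 19757572, 24483818, 18795822 and 27709990 in TESA 1, 3, 5 and 7, and 15515206, 15337589, 19373690 and 26261672 in CTRL 2, 4, 6 and 8. At 46 days they ran from 4538102 (CTRL 10) to 13513816 (TESA 4). Levels are given as counts relative to the library total (CPM, per 10⁶) after scaling by trimmed mean of M values (TMM), whose factors spanned 0.771 to 1.57 at 24 h and 0.0981 to 8.15 at 46 days. The library scaling thus moves values far more at 46 days. Among the features tested there, the highest mean level was that of Rn18s-rs5, a ribosomal RNA feature, at 1258950 CPM after scaling.

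Electrons from NADH enter the chain at complex I and those from succinate at complex II, pass through complex III and cytochrome c, and reduce oxygen at complex IV, while the proton gradient so formed drives ATP synthase, or complex V. Most subunits are encoded in the nucleus, and the catalytic core is completed by proteins made from mitochondrial DNA. Male germ cells replace several general subunits by testis-specific isoforms, and mature sperm, which carry their mitochondria in the midpiece, are transcriptionally silent, so their mRNA was made earlier or taken up.

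The labelled cell type was checked against marker genes. All 14 listed sperm and late spermatid markers were present at 24 h, led by Odf1, a protein of the outer dense fibres, with a summed level of 10341, 5546, 11835 and 7247 CPM in TESA 1, 3, 5 and 7 and 9226, 3826, 9618 and 12493 CPM in CTRL 2, 4, 6 and 8. Markers of other cells were also found: 11 of 15 epididymal epithelium genes, led by Crisp1, 13 of 14 leukocyte genes, led by Cd52, 4 of 5 blood genes, led by Hba-a2, and 5 of 5 smooth muscle genes, led by Tagln. Cd52 is also made by epididymal epithelium. Of striated muscle genes 2 of 6 were present (most counts for Acta1), of testis somatic genes 1 of 6 (Sox9) and of early germ cell genes 5 of 6 (most counts for Zbtb16), and 0 of the listed genes in the table were at 0 in all libraries. Which of these cells the respiratory chain mRNAs came from was not tested, and in such bulk samples fewer cells of a type and less RNA per cell cannot be told apart.

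Of the 84 genes, 76 had more than 20 counts in all 8 libraries, 6 in 4 to 7 libraries, and 2 (Cox7b2 and Cox7a1) in fewer than 4. The latter were not tested, which left 82. The summed level of all 84 was 3363, 2146, 3278 and 3208 CPM in TESA 1, 3, 5 and 7, and 2353, 1776, 3334 and 2519 CPM in CTRL 2, 4, 6 and 8. The groups overlapped: TESA 3 lay below 3 CTRL libraries, and CTRL 6 reached the upper TESA values. The group means were 2999 ± 572 (SD, n = 4) for TESA and 2496 ± 643 CPM (n = 4) for CTRL.

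TESA 3 and CTRL 4, lowest for the respiratory chain, were also lowest for other groups of mRNAs. Sums for cytosolic ribosomal protein mRNAs, a group added after seeing the data, were 37962, 18958, 43915 and 34865 CPM in TESA 1, 3, 5 and 7 and 27445, 17605, 38510 and 26791 CPM in CTRL 2, 4, 6 and 8. The leukocyte sums were 2117, 1314, 2219.9 and 2595 CPM against 1739, 1228, 2085 and 1559.8 CPM in the same order. Without Cd52, chosen after seeing the data and followed then by Cd74 as the most abundant gene, the leukocyte sums were 228, 243, 164 and 213 CPM against 323, 199, 157 and 182 CPM, and TESA 3 was then the highest TESA library. Epididymal epithelium genes summed to 1007, 831, 641 and 965 CPM against 603, 748, 1209 and 2105 CPM, a pattern with CTRL 8 on top. Blood genes summed to 88.8, 133, 64.7 and 147 CPM against 75.7, 53.5, 153 and 269.9 CPM. In each library but TESA 5, the remaining lists had smaller sums than the blood genes. Smooth muscle genes summed to 27.6, 32.3, 77.3 and 26.8 CPM against 11.9, 32.5, 22.3 and 35.6 CPM. All 5 had a log2 fold change above 0, the direction of the respiratory chain genes below, with a median of 0.77 that was 0.08 without TESA 5 and 0.42 without CTRL 2. The lists of blood, leukocyte, epididymal and sperm genes were split or lay on the other side, with 0 of 4 blood genes above 0 (median -0.35), 5 of 13 leukocyte genes (-0.17), 5 of 11 epididymal genes (-0.10) and 6 of 14 sperm markers (-0.08). With library totals these were 1, 10, 8 and 8 above 0, and relative to all features their medians were -0.40, -0.05, -0.10 and -0.10. The median turned above 0 without CTRL 8 for blood genes (0.15), without CTRL 2 for leukocyte genes (0.19), without TESA 5 (0.05) or CTRL 4 (0.22) for epididymal genes, and without TESA 3 (0.07), CTRL 2 (0.06) or CTRL 8 (0.20) for sperm markers. The lowest medians without CTRL 4 were -0.57 for blood genes and -0.28 for sperm markers. Leukocyte genes were lowest without CTRL 8 (-0.28) and epididymal genes without TESA 3 (-0.11). Early germ cell genes summed to 3.95, 16.0, 12.4 and 14.4 CPM against 8.44, 13.6, 17.8 and 9.78 CPM. Of 4 tested genes 3 were above 0, with a median of 0.02. That median was -0.03, -0.16, -0.15, -0.16 and -0.21 without TESA 3, TESA 5, TESA 7, CTRL 2 and CTRL 4. It was 0.30, 0.45 and 0.11 without TESA 1, CTRL 6 and CTRL 8. Sox9 stood at 4.50, 1.56, 4.04 and 2.82 CPM against 1.50, 4.12, 2.43 and 2.02 CPM, and the striated muscle genes at 0, 1.08, 1.63 and 0.688 CPM against 0.668, 1.54, 1.55 and 0.497 CPM. The part of these cells in the values of the respiratory chain genes was not tested.

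In the edgeR quasi-likelihood test across 13752 features, 0 of the 82 tested genes passed an adjusted p of 0.05, as did 0% of all features, and 2 had an unadjusted p below 0.05. Both, Atp5g1 and Ndufs8, were higher in TESA, where 0.953% of all features met the same limit, and 0 of the 82 were lower, against 1.75% of all features. The edgeR exact test, DESeq2 and limma voom also called 0 of them, with 2, 6 and 3 genes at an unadjusted p below 0.05 beside 369, 492 and 729 of all features, where the quasi-likelihood test had 372. The smallest adjusted p among them was 1.00 in the edgeR quasi-likelihood test, with standard errors of the log2 fold changes from 0.20 to 1.20 (median 0.31). With SEs of this size, small differences would not be detected.

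Most values lay on the same side, but the genes share the same libraries and are not independent observations. The log2 fold change, TESA relative to CTRL, was above 0 in 61 of the 82 genes and below 0 in 21, with a median of 0.26 beside -0.02 for all features tested, of which 6569 of 13752 were above 0. Scaling by library totals shifted the median of all features to 0.19, with 8984 of them and 70 of the 82 genes above 0. Relative to all features the median of the respiratory chain genes was 0.29 with TMM and 0.27 with library totals, and it was above 0 with DESeq2 size factors as well. The ribosomal protein mRNAs leaned the same way, with 78 of 83 above 0 and a median of 0.28 (0.14 without CTRL 4, 0.15 without TESA 5, 0.47 without TESA 3 and 0.48 without CTRL 6). Groups did not overlap for 3 genes that were higher in TESA (Ndufs8, Sdhb and Uqcrfs1), beside 1.32% of all features, and for 0 that were lower, beside 1.95%. With library totals the groups of 0 genes stood apart in either direction, where 1.17% of all features did so as higher and 0.574% as lower. Genes at an unadjusted p below 0.05 in the edgeR quasi-likelihood test numbered 0 without CTRL 8 (251 of all features), 1 without TESA 5 (288), TESA 7 (261) or CTRL 2 (320), 11 without CTRL 6 (407) and 12 without TESA 3 (567). With TESA 3 and CTRL 4 left out together, a choice made after seeing the data, the count was 6 (457 of all features) and the median 0.22. Without CTRL 4 alone the median was 0.12, and without CTRL 6 it was 0.40.

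**Figure D1:**
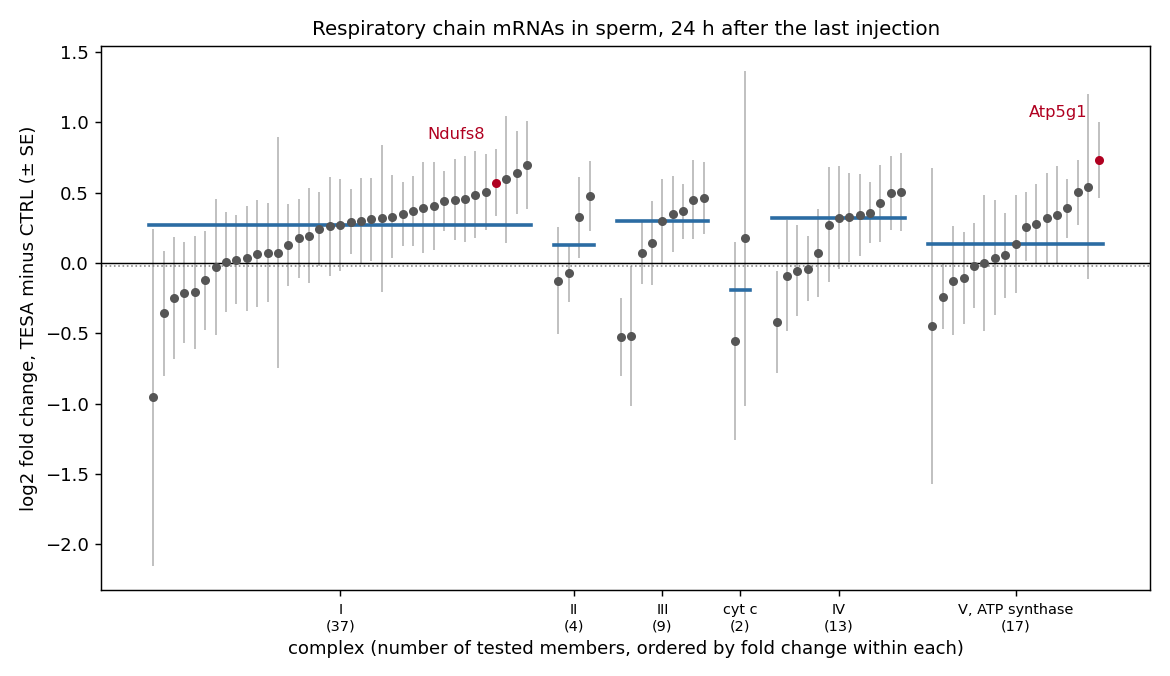
Log2 fold changes (TESA minus CTRL, vertical axis, bars ± SE) of the 82 tested genes at 24 h by complex on the horizontal axis, with genes at an unadjusted p below 0.05 in red, the median of each complex as a blue line and that of all features as a dotted line. Of the points, 61 lie above 0 and most bars reach it, and the direction of each complex's median was the same with library totals.

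Complex I, the NADH dehydrogenase, gave 37 of the genes, and all were tested. Of these, 30 had a log2 fold change above 0, with a median of 0.27, and 33 with library totals. The 7 core subunits, which hold the flavin and the iron-sulphur clusters, had a median of 0.35 with 6 above 0. The 30 genes counted by name as accessory, which include Ndufa4 and Ndufa4l2, had a median of 0.22 with 24 above 0. Without CTRL 4 the median of the complex was 0.11 and that of the accessory genes 0.05. Without CTRL 6 the complex was at 0.48, the core at 0.55 and the accessory genes at 0.43.

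Ndufs8 encodes a core subunit that carries iron-sulphur clusters. Its level was 13.2, 12.9, 13.7 and 14.7 CPM in TESA 1, 3, 5 and 7, and 7.35, 9.30, 10.8 and 9.18 CPM in CTRL 2, 4, 6 and 8. All 4 TESA libraries lay above all 4 CTRL libraries, with means of 13.6 ± 0.782 and 9.16 ± 1.42 CPM (SD, n = 4 each). The log2 fold change was 0.57 (SE 0.24), with an unadjusted p of 0.0368 and an adjusted p of 1.00 in the edgeR quasi-likelihood test.

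Ndufb5, an accessory subunit of the membrane arm, had 35.3, 23.0, 46.1 and 26.0 CPM in TESA 1, 3, 5 and 7, and 17.0, 12.6, 27.7 and 23.0 CPM in CTRL 2, 4, 6 and 8. TESA 5 was highest, and TESA 3 and 7 lay below CTRL 6. Its log2 fold change was 0.69 (SE 0.31), at an unadjusted p of 0.0503 in the edgeR quasi-likelihood test. Ndufa3, another accessory subunit, had 53.7, 30.8, 56.0 and 57.3 CPM in TESA 1, 3, 5 and 7, and 29.4, 22.5, 47.9 and 26.8 CPM in CTRL 2, 4, 6 and 8. TESA 3 stood below the other TESA libraries and CTRL 6 above the other CTRL libraries, so the groups overlapped. For Ndufa3 the log2 fold change was 0.64 (SE 0.30), with an unadjusted p of 0.0553 in the edgeR quasi-likelihood test.

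Ndufa2, the complex I gene with the most counts, had 83.6, 37.5, 82.8 and 78.8 CPM in TESA 1, 3, 5 and 7, and 65.0, 35.3, 89.8 and 56.8 CPM in CTRL 2, 4, 6 and 8. TESA 3 and CTRL 4 were the low libraries, and the log2 fold change of 0.19 (SE 0.34) was 0.12 without TESA 1, 0.40 without TESA 3, 0.13 without TESA 5, 0.02 without CTRL 4 and 0.43 without CTRL 6. Ndufa4 keeps its complex I name but is now regarded as a subunit of complex IV. Its level was 31.9, 12.5, 9.86 and 22.8 CPM in TESA 1, 3, 5 and 7, and 8.11, 5.98, 23.7 and 23.7 CPM in CTRL 2, 4, 6 and 8. Its values ranged widely inside each group, and its log2 fold change of 0.32 (SE 0.52) was -0.01 without TESA 1. Other left-out libraries gave 0.48 (TESA 3), 0.56 (TESA 5), 0.13 (CTRL 2), 0.08 (CTRL 4) and 0.60 (CTRL 6 or CTRL 8). Ndufs1, which encodes the largest core subunit and is named because of its values, had 0, 155, 74 and 6 counts in TESA 1, 3, 5 and 7, and 51, 108, 93 and 87 in CTRL 2, 4, 6 and 8. The near absence of counts in TESA 1 and 7 left its log2 fold change at -0.96 with an SE of 1.20, the largest SE of the 82 genes. The value was -0.54 without TESA 1, -2.01 without TESA 3 and -0.55 without TESA 7 or CTRL 4.

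Complex II, succinate dehydrogenase, is encoded by 4 nuclear genes, of which 2 had a log2 fold change above 0 with TMM and 3 with library totals. The median was 0.13, and 0.21 without TESA 1, 0.09 without TESA 3, 0.22 without TESA 5, 0.08 without TESA 7, 0.06 without CTRL 2 and 0.24 without CTRL 6. Sdhb, the iron-sulphur subunit, had 10.6, 11.2, 11.4 and 15.6 CPM in TESA 1, 3, 5 and 7, and 8.61, 9.14, 8.34 and 8.98 CPM in CTRL 2, 4, 6 and 8. All TESA libraries lay above all CTRL libraries, and TESA 7 lay apart at the top. Its log2 fold change was 0.48 (SE 0.25), with an unadjusted p of 0.0832 in the edgeR quasi-likelihood test. Sdha, the flavoprotein that oxidizes succinate, had 22.3, 31.8, 25.8 and 24.9 CPM in TESA 1, 3, 5 and 7, and 23.1, 26.2, 29.4 and 31.1 CPM in CTRL 2, 4, 6 and 8. The Sdha groups overlapped over most of their range, at a log2 fold change of -0.07 (SE 0.20) that was 0.12 with library totals. Its value was 0.02 without TESA 1, -0.18 without TESA 3, -0.04 without TESA 5 or TESA 7, -0.13 without CTRL 2, -0.03 without CTRL 6 and -0.01 without CTRL 8.

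Complex III, which passes electrons from ubiquinol to cytochrome c, gave 9 genes, of which 7 had a log2 fold change above 0 with TMM and with library totals, and a median of 0.30 (0.19 without TESA 5 and 0.18 without CTRL 4). Uqcrfs1, the Rieske iron-sulphur protein, is named because its groups did not overlap. It had 22.9, 20.3, 26.0 and 22.7 CPM in TESA 1, 3, 5 and 7, and 16.5, 16.7, 18.6 and 19.4 CPM in CTRL 2, 4, 6 and 8. The lowest TESA library, TESA 3, was close above the highest CTRL library, CTRL 8, and the log2 fold change was 0.37 (SE 0.20), at an unadjusted p of 0.0913 in the edgeR quasi-likelihood test. Uqcrc2, a core protein of the complex, went the other way, with 7.22, 11.0, 6.80 and 7.20 CPM in TESA 1, 3, 5 and 7, and 9.69, 12.5, 12.7 and 11.5 CPM in CTRL 2, 4, 6 and 8. TESA 3 alone reached the CTRL values. For Uqcrc2 the log2 fold change was -0.52 (SE 0.28), with an unadjusted p of 0.0855 in the edgeR quasi-likelihood test. Uqcrh, the hinge protein, took the most counts of complex III, with 164, 76.6, 177 and 149 CPM in TESA 1, 3, 5 and 7, and 119.8, 79.9, 152 and 109 CPM in CTRL 2, 4, 6 and 8. TESA 3 was the lowest library of all, and the log2 fold change of 0.30 (SE 0.30) was 0.50 without TESA 3, 0.19 without TESA 5, 0.18 without CTRL 4 and 0.46 without CTRL 6.

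**Figure D2:**
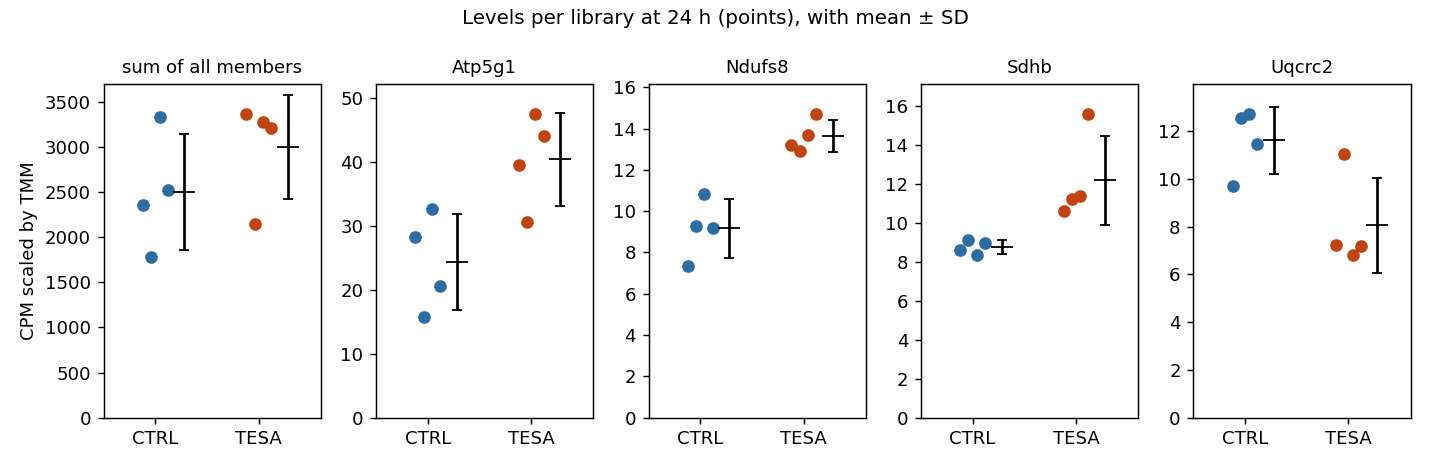
Levels at 24 h in CPM scaled by TMM (vertical axes, from 0) for the sum of the 84 genes and for Atp5g1, Ndufs8, Sdhb and Uqcrc2, with 1 point per CTRL or TESA library and the mean ± SD (n = 4) beside them. The groups do not overlap for Ndufs8 and Sdhb, where the lowest TESA libraries are at 12.9 and 10.6 CPM and the highest CTRL libraries at 10.8 and 9.14 CPM, and they overlap in the other panels and, with library totals, for these genes too.

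Cytochrome c, the soluble carrier between complexes III and IV, was represented by the general gene Cycs and the testis gene Cyct, both at low counts. Cycs had 4.38, 4.20, 0.986 and 3.97 CPM in TESA 1, 3, 5 and 7, and 1.17, 2.10, 8.15 and 8.35 CPM in CTRL 2, 4, 6 and 8. CTRL 6 and 8 held the highest values and TESA 5 and CTRL 2 the lowest, so the log2 fold change of -0.55 had an SE of 0.71. It was -0.23 without TESA 5, -0.86 without CTRL 2, -0.21 without CTRL 6 and -0.18 without CTRL 8. Cycs has many processed pseudogenes, and as the division of reads among such copies was not tested, its values are given as uncertain. Cyct had 1.36, 0.952, 0 and 0.688 CPM in TESA 1, 3, 5 and 7, and 0.501, 0.485, 0.437 and 1.19 CPM in CTRL 2, 4, 6 and 8. From 0 to 36 counts lay behind each value, and the log2 fold change of 0.18 (SE 1.19) was -0.72 with limma voom, 0.61 without TESA 5, 0.09 without CTRL 2 or CTRL 4 and 0.02 without CTRL 6.

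Complex IV, cytochrome c oxidase, gave 15 genes. Of the 13 tested, 9 had a log2 fold change above 0 with TMM and 12 with library totals, and the median was 0.32, which was 0.16 without CTRL 2, 0.15 without CTRL 4 and 0.52 without CTRL 6. Cox4i1, a regulatory subunit and the gene with the most counts of all 84, had 384, 183, 376 and 298 CPM in TESA 1, 3, 5 and 7, and 249, 167, 357 and 217 CPM in CTRL 2, 4, 6 and 8. TESA 3 and CTRL 4 were again the low libraries, and CTRL 6 lay among the high TESA libraries. The log2 fold change was 0.32 (SE 0.31) for Cox4i1, 0.36 (SE 0.22) for Cox6a1, 0.42 (SE 0.27) for Cox6b1 and 0.07 (SE 0.31) for Cox7a2, and the groups overlapped for each. Cox4i1 was at 0.51 without TESA 3, 0.19 without CTRL 4 and 0.56 without CTRL 6. For Cox7a2 the left-out libraries gave 0.02 (TESA 1 or CTRL 2), 0.18 (TESA 3), 0.17 (TESA 5), -0.06 (TESA 7), -0.11 (CTRL 4), 0.22 (CTRL 6) and 0.23 (CTRL 8). Cox8a had 127, 80.8, 168 and 131 CPM in TESA 1, 3, 5 and 7, and 65.4 (CTRL 4) to 115 CPM (CTRL 6) in CTRL. TESA 3 lay inside the CTRL range and the other TESA libraries above it, and the log2 fold change of Cox8a was 0.51 (SE 0.28), at an unadjusted p of 0.0969 in the edgeR quasi-likelihood test. Cox7b, an X-linked gene, had a log2 fold change of -0.04 (SE 0.23), which was 0.14 with library totals, -0.01 without TESA 3, -0.10 without CTRL 2 or CTRL 4 and 0.13 without CTRL 6. Of the 3 X-linked genes, which include Ndufa1 and Ndufb11, 2 were above 0, with a median of 0.03 that was below 0 without TESA 1 (-0.06), CTRL 2 (-0.05) or CTRL 4 (-0.10) and higher without TESA 3 (0.20), CTRL 6 (0.27) or CTRL 8 (0.18).

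ATP synthase gave 17 names, which include Atp5s and Atp5sl, whose products are not subunits of the enzyme. Of the 17, 12 had a log2 fold change above 0 with TMM and 14 with library totals, with a median of 0.13. It was 0.33 without TESA 3, 0.22 without TESA 7 or CTRL 2 and 0.21 without CTRL 6. In the catalytic F1 part, 3 of 5 genes were above 0 with a median of 0.06, which was -0.16 without CTRL 2 and 0.03 to 0.19 without any other library. In the membrane part and stalks, 8 of 10 were above 0 with a median of 0.27, and of 0.13 without CTRL 4.

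Atp5g1 is 1 of 3 genes for the c subunit, which forms the rotating ring in the membrane. It had 39.5, 30.6, 47.5 and 44.0 CPM in TESA 1, 3, 5 and 7, and 28.2, 15.8, 32.6 and 20.7 CPM in CTRL 2, 4, 6 and 8. TESA 3 lay below CTRL 6, and the other 3 TESA libraries lay above all CTRL libraries. The means were 40.4 ± 7.32 and 24.3 ± 7.56 CPM (SD, n = 4 each). With a log2 fold change of 0.73 (SE 0.27), it had the smallest unadjusted p of the 82 genes, 0.0215 in the edgeR quasi-likelihood test, and an adjusted p of 1.00. The sister gene Atp5g2 had a log2 fold change of 0.00 (SE 0.48), from -0.25 without TESA 7 to 0.30 without TESA 3. Atp5g3, named because of its values, had 263, 342, 227 and 606 counts in TESA 1, 3, 5 and 7, and 106, 136, 15 and 538 in CTRL 2, 4, 6 and 8. Only CTRL 6 was near absent, and the log2 fold change of 0.54 had an SE of 0.66, and was 0.15 without CTRL 6 and 1.03 without CTRL 8.

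Atp5d, a subunit of the central stalk of F1, had 103, 66.2, 97.0 and 108 CPM in TESA 1, 3, 5 and 7, and 71.8, 51.9, 79.0 and 61.9 CPM in CTRL 2, 4, 6 and 8. TESA 3 lay inside the CTRL range and the other TESA libraries above it, at a log2 fold change of 0.50 (SE 0.23) and an unadjusted p of 0.0542 in the edgeR quasi-likelihood test. Atp5e, a small subunit of the same stalk with the most counts of ATP synthase, had 98.0, 50.3, 126 and 79.3 CPM in TESA 1, 3, 5 and 7, and 95.4, 42.5, 109 and 75.6 CPM in CTRL 2, 4, 6 and 8. Its groups ran nearly over the same range, and the log2 fold change of 0.13 (SE 0.35) was -0.06 without CTRL 4 and -0.07 without TESA 5, and 0.33, 0.24 and 0.31 without TESA 3, CTRL 2 and CTRL 6. Atp5s had 0 to 79 counts in a library and a log2 fold change of -0.45 (SE 1.12), the widest error of ATP synthase, which was -0.24 without TESA 1, -0.20 without TESA 3 and -0.84 without CTRL 2.

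Testis-specific isoforms were compared with their general counterparts inside each library, so that the library scaling drops out. For all 4 testis pairs the testis isoform had fewer counts than the general isoform in 8 of 8 libraries. Counts were not divided by transcript length, so this is not an order of levels. An exact 2-sided permutation test of 4 against 4 libraries cannot give a p below 0.0286. After adjustment over the 4 pairs, 1 pair that alone stood fully apart would have 0.114, so the test could not call a single pair.

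Cox8c, the testis isoform of subunit 8, had 88, 167, 177 and 263 counts in TESA 1, 3, 5 and 7, and 75, 75, 299 and 294 in CTRL 2, 4, 6 and 8. Cox8a, its general counterpart, had 2065, 1869, 3400 and 5688 counts in the same TESA libraries, and 908, 809, 2368 and 3015 in the same CTRL libraries. The log2 ratio of Cox8c to Cox8a, with 0.5 added to each count, was -4.54, -3.48, -4.26 and -4.43 in TESA 1, 3, 5 and 7, and -3.59, -3.42, -2.98 and -3.36 in CTRL 2, 4, 6 and 8. TESA 1, 5 and 7 lay below all CTRL libraries, and TESA 3 lay among them. The mean ratio was lower in TESA by a log2 difference of -0.84, with p = 0.0571 in the exact permutation test and 0.229 after Benjamini-Hochberg adjustment of that test. Cox8c made up 5.41% ± 1.89 of the counts of the pair in TESA and 9.05% ± 1.53 in CTRL (SD, n = 4 each). The log2 fold changes of the genes themselves were -0.42 (SE 0.37) for Cox8c and 0.51 (SE 0.28) for Cox8a, and neither passed the edgeR quasi-likelihood test. Without CTRL 6 Cox8c was at -0.11.

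Cox6b2, the testis isoform of subunit 6b, had 195, 147, 320 and 564 counts in TESA 1, 3, 5 and 7, and 75, 74, 343 and 302 in CTRL 2, 4, 6 and 8. Cox6b1 had 1020, 937, 1330 and 2890 counts in the same TESA libraries, and 570, 369, 1268 and 1096 in the same CTRL libraries. The testis share of their counts was 16.3% ± 2.39 in TESA and 17.8% ± 4.69 in CTRL (SD, n = 4 each), and the ranges of the groups overlapped. The difference of the log2 ratio was -0.12 (p = 0.714 in the exact permutation test, 0.952 after adjustment). Left-out libraries moved it to -0.02 (TESA 3), -0.23 (TESA 5), -0.35 (CTRL 2), 0.00 (CTRL 6) and 0.01 (CTRL 8). For Cyct against Cycs the difference was -0.38 (p = 0.686 in the exact permutation test, 0.952 after adjustment), at 0 to 36 counts of Cyct and 14 to 252 of Cycs. It was 0.43 without TESA 5, which had 0 counts of Cyct, 0.08 without CTRL 2 and -0.21 without CTRL 4, and it was -0.80, -0.65 and -0.92 without TESA 1, TESA 3 and CTRL 6. With 1 in place of 0.5 added to each count it was -0.18. Cox7b2 had 0, 15, 19 and 24 counts in TESA 1, 3, 5 and 7, and 0, 0, 20 and 61 in CTRL 2, 4, 6 and 8. Its ratio to Cox7b differed by 0.44 (p = 0.971 in the exact permutation test, before and after adjustment), and by -0.07, -0.33 and -0.34 without TESA 5, CTRL 2 and CTRL 4. Without TESA 1, TESA 3, TESA 7, CTRL 6 and CTRL 8 the value was 1.61, 0.06, 0.17, 0.97 and 1.45, and with 1 added to each count 0.21.

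**Figure D3:**
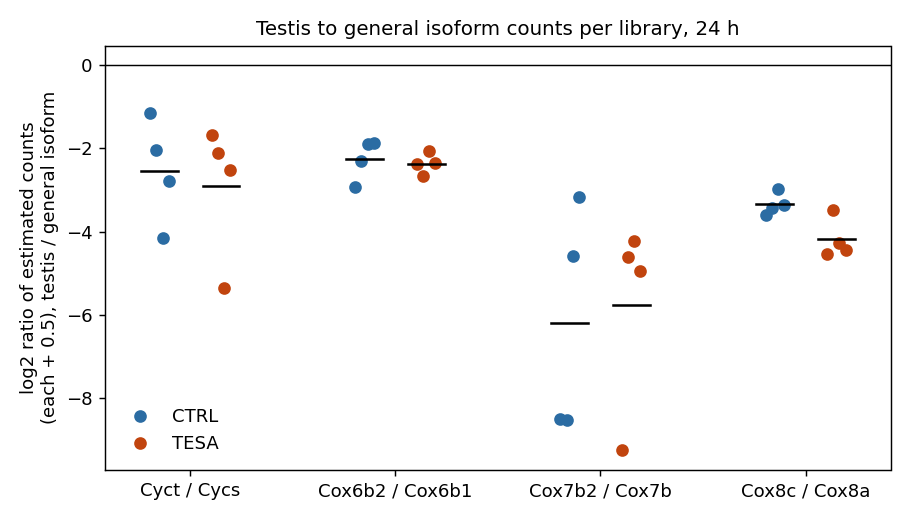
Log2 ratio of the counts of the testis isoform to those of the general isoform (vertical axis, 0.5 added to each count) for the 4 pairs on the horizontal axis, with 1 point per CTRL or TESA library at 24 h and the group mean as a line. All points lie below 0, and for Cox8c against Cox8a the TESA mean is -4.18 and the CTRL mean -3.34.

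Isoforms of other tissues were read in the same way. Cox7a1, the striated muscle isoform of subunit 7a, had 0 to 43 counts in a library. Ndufa4l2, a relative of Ndufa4 induced by hypoxia, had 6 to 79 counts and a log2 fold change of 0.07 (SE 0.82), which was 0.38 without TESA 1, 0.24 without TESA 3, -0.08 without CTRL 4 and -0.13 without CTRL 8. With limma voom it was 0.43 and with library totals 0.47, where the median of all features was 0.19. Both had fewer counts than Cox7a2 and Ndufa4 in 8 of 8 libraries. The log2 ratio, TESA minus CTRL, differed by 1.08 for Cox7a1 to Cox7a2 and by -0.50 for Ndufa4l2 to Ndufa4. The exact permutation test gave unadjusted p = 0.371 and 0.629. CTRL 2, with 0 counts of Cox7a1, had a log2 ratio of -9.74 for that pair. The isoforms Cox6a2, Cox8b and Cox4i2 were not analysed here.

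Other genes needed to build the chain were read from lists. Assembly factors, which insert cofactors and join subunits, were listed with a few associated proteins as 58 genes, of which 52 were in the table and 48 were tested. Not assembly factors in the strict sense are Ndufab1, a subunit of complex I, Usmg5, a subunit of ATP synthase, and Atpif1, its inhibitor. Of the 48, 0 passed in the edgeR quasi-likelihood fit, and at an unadjusted p below 0.05 there were also 0. Their log2 fold changes were above 0 in 26, with a median of 0.05, beside 6569 of 13752 features, and in 36 with library totals, beside 8984 features. With 1 library left out that median lay from 0.04 to 0.19, the highest without CTRL 6. Those above 0 were 6 of 12 for complex I, 2 of 3 for complex II, 3 of 5 for complex III, 12 of 23 for complex IV and 3 of 5 for complex V. Timmdc1, a complex I assembly factor, had 5.86, 3.98, 3.65 and 5.28 CPM in TESA 1, 3, 5 and 7, and 2.67, 1.78, 1.26 and 3.45 CPM in CTRL 2, 4, 6 and 8. It is named as the 1 gene of the 48 whose groups did not overlap (2.08%, beside 1.32% of all features), at a log2 fold change of 1.03 (SE 0.46) and an unadjusted p of 0.0511 in the edgeR quasi-likelihood test.

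Regulators of mitochondrial biogenesis, such as Nrf1, Gabpa and Esrra, which act on promoters of respiratory chain genes in many tissues, were listed as 12 genes, of which 11 were in the table and 9 were tested. Their log2 fold changes were above 0 in 4, with a median of -0.01, which was 0.00 with DESeq2 size factors and 0.18 with library totals (all features 0.19), and 0 of them had an unadjusted p below 0.05 in the edgeR quasi-likelihood test. The regulators were above 0 in their median without TESA 5 (0.07), CTRL 4 (0.05), CTRL 6 (0.01) or CTRL 8 (0.12) and at -0.16 without CTRL 2. The 13 mRNAs made from mitochondrial DNA, the partners of the nuclear subunits in the complexes, had log2 fold changes from -0.77 to -0.18, with a median of -0.34. Of these, 0 were above 0 with any of the 4 scalings, and none reached an unadjusted p below 0.05 in the edgeR quasi-likelihood test. Their summed level was 45884, 19569, 20074 and 21305 CPM in TESA 1, 3, 5 and 7, and 35138, 9409.8, 56747 and 33721 CPM in CTRL 2, 4, 6 and 8. TESA 1 and CTRL 6 were high and CTRL 4 was lowest, so the groups overlapped widely. The median was -0.07 without CTRL 6, with 5 of the 13 above 0, -0.22 without TESA 5, -0.21 without TESA 7, -0.62 without CTRL 4 and -0.72 without TESA 1. Without CTRL 4, 2 of the 13 had an unadjusted p below 0.05 in the edgeR quasi-likelihood test (410 of all features), and 0 without any other library. The nuclear and the mitochondrial median thus had opposite signs, and the difference between them was not tested.

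Promoters of the nuclear genes were read as 250 bases before to 50 bases after each start from RefSeq (GRCm38.p6). The genes lie on 19 chromosomes, 81 of the 84 were matched by symbol and 3 by an older name, and 70 had at least 1 of 76 windows in all. Motifs of 4 factors tied to these genes and of the PPAR element were searched on both strands, and a match describes letters and not a site in use. The NRF-1 core GCGCATGC was in 11 of the 76 windows (14.5%), beside 4.86% of 12753 windows of genes in the 24 h table and 2.71% of all 32851 windows. The YY1 motif AAGATGGC was in 12 windows (15.8%), beside 4.23% and 2.75%. The GABP motif CCGGAAG was in 16 (21.1%), beside 16.1% and 8.86%, and overlapped the YY1 motif in 0 of them. The cAMP response element TGACGTCA was in 5 (6.58%), beside 2.95% and 1.79%. The direct repeat bound by PPAR in its strict form AGGTCANAGGTCA was in 0 of the 76, beside 0.0549% and 0.0396%, so that a window without it is the usual case. Another gene's window on the other strand overlapped 23 of the 76 windows (30.3%), beside 15.8% and 10.8%. These pairs include Atp5j with Gabpa, Ndufb5 with Mrpl47 and Ndufa7 with Rps28.

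In 2 pairs the general isoform held a motif before its start and the testis isoform held none of them. No motif was in more than 16.1% of the windows of genes in the 24 h table, so a window without a given motif is the usual case. Whether the isoforms differ in this was not tested. In the other pairs, none of the 5 motifs was found before the start of Cox7b, Cox7b2 or Cox8a, and Cox8c had no window. Cox8a held the GABP motif only in letters that reached past its start. The 250 bases before the start are shown for the first 2 pairs to let their promoters be compared. They are given 5′ to 3′ on the strand of the gene. All lie on the minus strand of GRCm38.p6: Cycs at chr6:50566570-50566819, Cyct at chr2:76360454-76360703, Cox6b1 at chr7:30626115-30626364 and Cox6b2 at chr7:4753095-4753344. Capitals mark the cAMP response element and the NRF-1 core in Cycs and the GABP motif in Cox6b1. In these letters, 0 of the 5 motifs were found in Cyct and Cox6b2.
Cycs: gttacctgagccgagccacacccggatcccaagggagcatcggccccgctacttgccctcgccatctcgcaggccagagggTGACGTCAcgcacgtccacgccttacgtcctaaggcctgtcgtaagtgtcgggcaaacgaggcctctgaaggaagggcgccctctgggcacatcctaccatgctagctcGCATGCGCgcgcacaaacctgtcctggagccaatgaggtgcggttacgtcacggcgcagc
Cyct: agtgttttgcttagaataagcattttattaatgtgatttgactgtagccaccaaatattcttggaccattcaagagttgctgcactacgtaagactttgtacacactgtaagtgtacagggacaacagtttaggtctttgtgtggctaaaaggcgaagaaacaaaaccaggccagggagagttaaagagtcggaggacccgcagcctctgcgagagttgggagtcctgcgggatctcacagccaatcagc
Cox6b1: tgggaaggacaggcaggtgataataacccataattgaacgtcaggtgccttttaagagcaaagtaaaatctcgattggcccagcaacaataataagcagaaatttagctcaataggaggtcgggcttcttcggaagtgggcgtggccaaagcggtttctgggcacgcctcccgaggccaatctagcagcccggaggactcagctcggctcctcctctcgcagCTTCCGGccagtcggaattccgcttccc
Cox6b2: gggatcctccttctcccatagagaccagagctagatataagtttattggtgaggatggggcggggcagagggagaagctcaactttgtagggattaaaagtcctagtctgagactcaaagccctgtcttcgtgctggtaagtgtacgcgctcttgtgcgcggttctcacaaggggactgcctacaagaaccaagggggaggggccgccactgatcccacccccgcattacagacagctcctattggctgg

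At 46 days, 3 of the respiratory chain genes were in the table, and 0 of 2866 features tested passed the edgeR quasi-likelihood test (0%). Sperm markers were present for 14 of 14 genes, led by Prm2. Of the epididymal genes only Cftr was in the table, and of 6 early germ cell genes only Ddx4. Of the other lists 0 of 14 leukocyte, 0 of 5 blood and 0 of 5 smooth muscle genes were found. Striated muscle and testis somatic genes were at 0 of 6 each, so these cells were not analysed here. Of the 3 genes 0 had an unadjusted p below 0.05, beside 4.26% of features that were higher in TESA and 1.05% that were lower. The edgeR exact test called 13 features and 0 of the 3, and DESeq2 and limma voom called 0 features. The paper used the exact test on mRNAs and lincRNAs, apart from repeats and with fewer TESA samples than here. It reported mRNAs past an FDR of 0.05, with genes of the mitochondrial respiratory chain as an example. Its text does not name these genes, so they could not be compared with the 3.

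Ndufa13, an accessory subunit of complex I, ranged from 2.76 to 19.0 CPM (median 4.68) in TESA and from 2.63 to 6.15 CPM (median 4.02) in CTRL. TESA 12 alone lay above the CTRL range. The log2 fold change was 0.54 (SE 0.38), and -0.03 without TESA 12. That library also had 5618 CPM of the 5 mitochondrially encoded mRNAs in the table, where TESA 2 had 214 CPM and the remaining 12 libraries 21.2 to 76.0 CPM, and 557 CPM of ribosomal protein mRNAs, where the others had 51.5 to 125 CPM. For these 5 mRNAs the median log2 fold change was 5.37 with all libraries and 1.92 without TESA 12. In the latter fit 4 of the 5 were above 0. TESA 2 then had the highest sum but not the highest mt-Co1 level (41.9 CPM, beside 61.0 CPM in CTRL 9). In the edgeR quasi-likelihood test 0 passed, with 5 and 3 at an unadjusted p below 0.05, beside 152 and 88 of all features. The part of the makeup of TESA 12 in the value of Ndufa13 was not tested.

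Ndufb2, another accessory subunit of complex I, ranged from 2.77 to 23.0 CPM (median 12.8) in TESA and from 7.44 to 15.7 CPM (median 11.2) in CTRL. TESA 12 was lowest and TESA 5 highest of all libraries, so the CTRL range lay inside the TESA range. The log2 fold change was 0.14 (SE 0.33), and -0.11 without TESA 5. Other left-out libraries moved it to 0.03 (TESA 3), 0.01 (TESA 4), 0.26 (TESA 11), 0.27 (TESA 12), 0.02 (CTRL 6), 0.09 (CTRL 9), 0.21 (CTRL 10) and 0.08 (CTRL 14). The library numbers run from 1 to 14 without a break, and 11 to 14 again hold both groups. Whether libraries 11 to 14 were made at another time is not given in the labels. In libraries 1 to 10 alone, a choice made after seeing the data, the log2 fold change was 0.48 for Ndufb2, -0.05 for Ndufa13 and -0.33 for Atp5sl. Atp5sl, named after ATP synthase but not a subunit, ranged from 1.06 to 3.23 CPM (median 2.47) in TESA and from 1.31 to 4.29 CPM (median 2.88) in CTRL. CTRL 8 and 9 lay above every TESA library and TESA 4 below every CTRL library, and the other libraries overlapped, at a log2 fold change of -0.17 (SE 0.27). It was -0.29 without TESA 1, -0.09 without TESA 4, -0.27 without TESA 11, -0.32 without CTRL 6 and -0.09 without CTRL 8. At 24 h the log2 fold changes of these genes were 0.17 (SE 0.28) for Ndufa13, 0.13 (SE 0.29) for Ndufb2 and 0.32 (SE 0.32) for Atp5sl. There Ndufa13 was at 0.30 without TESA 3, 0.32 without CTRL 2, 0.00 without CTRL 4 and 0.29 without CTRL 6, and Atp5sl at 0.53 without TESA 3 and 0.17 without TESA 5. Ndufb2 at 24 h was at 0.23 without TESA 3, 0.00 without TESA 7, 0.06 without CTRL 2, -0.01 without CTRL 4, 0.33 without CTRL 6 and 0.20 without CTRL 8. Between 2 and 711 counts lay behind each of the 46-day values. Scaling by library totals at 46 days shifted the median of all features from -0.03 to -1.09, and relative to it Ndufa13 was at 0.17, Ndufb2 at -0.18 and Atp5sl at 0.10.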

How the data were processed

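RNA of sperm was measured in 8 libraries at 24 h and 14 at 46 days. Per the submitters' processing notes, the authors trimmed reads with Trim Galore 1.16 and quantified them with Salmon 0.11.2 against transcripts of GRCm38, piRNA precursors and repeats, and deposited estimated counts per gene or repeat family. Here these were rounded and fitted per table with edgeR 4.0.16 (quasi-likelihood test, TMM over all features, more than 20 counts in 4 or more libraries at 24 h and 6 or more at 46 days, Benjamini-Hochberg adjustment over all features tested). SEs are the log2 fold change divided by the square root of F. R 4.3.3, limma 3.58.1, DESeq2 1.42.0, data.table (version 1.17.8), Python 3.11.15 and matplotlib 3.10.9 were used, and the fits were tested on simulated data. Isoform ratios were compared by exact permutation. Alternatives were other tests, scalings, filters, left-out libraries and, for the ratios, 1 in place of 0.5 added to each count.

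Members and lists were chosen with earlier results of these data known. Named genes were those of the isoform pairs, the tested gene with the most and the fewest counts per complex, the 5 with the smallest unadjusted p at 24 h and those in the 46-day table. The rule asked for levels per kb. Transcript lengths were not used here, so mean counts replaced them and the isoform level ratio was not run. Many of these genes have processed pseudogenes among which reads may be split. The serum samples were not used here.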

Additional observations from a re-analysis of the deposited data

Results flagged for a closer look

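In groups of 4 to 10 libraries, a value was picked out where the gap between the highest or lowest library and its neighbour was a large share of the range of the group (Dixon's test). Of 86 groups tested, 12 were picked out, and chance picks about 1 in 20, or 4.3. TESA 3 was apart from the other TESA libraries at 24 h for the sum of all respiratory chain genes (2146 CPM beside 3208 to 3363), complex III (274 beside 445 to 467), complex V (497 beside 669 to 701), Cox6b1 (40.5 beside 62.9 to 66.3), Ndufa2 (37.5 beside 78.8 to 83.6) and Ndufa3 (30.8 beside 53.7 to 57.3). It was low in each of these and high for Uqcrc2 (11.0 CPM beside 6.80 to 7.22). These genes share libraries and are not independent. TESA 5 was low for Cycs (0.986 CPM beside 3.97 to 4.38), TESA 7 was high for Sdhb (15.6 CPM beside 10.6 to 11.4), and TESA 1 was low for the log2 ratio of Cox7b2 to Cox7b (-9.25 beside -4.95 to -4.21), where it had 0 counts of Cox7b2. CTRL 8 was high for Cyct (1.19 CPM beside 0.437 to 0.501). At 46 days TESA 12 was high for Ndufa13 (19.0 CPM beside 2.76 to 5.85). The part of TESA 3 in the count and median of the respiratory chain genes was measured by leaving it out, and the causes were not tested.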

How the results depend on the processing

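The count of 0 genes past the adjusted p at 24 h and at 46 days was the same with the edgeR exact test, DESeq2, limma voom, DESeq2 size factors, library totals, TMM over tested features, no count filter, filterByExpr, RefSeq gene names only (24 h) and each library left out, and with libraries left out by choices made after seeing the data (TESA 3 and CTRL 4 at 24 h, libraries 11 to 14 or TESA 2 and 12 at 46 days). Respiratory chain genes at an unadjusted p below 0.05 at 24 h numbered 2 in the edgeR quasi-likelihood test, 6 with DESeq2, 5 with DESeq2 size factors, 1 with library totals, 6 without TESA 3 and CTRL 4, and 0 to 12 with 1 library left out. Their median stayed above 0, from 0.12 to 0.40 with 1 library left out and from 0.22 to 0.46 elsewhere. All features at that limit numbered 372, with 729 by limma voom, 151 with library totals, 242 with RefSeq names only and 251 to 567 with 1 library left out, and at 46 days 152, with 48 in libraries 1 to 10 alone and 88 to 207 with 1 left out. The edgeR exact test called 13 features at 46 days.

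The sign turned for Cyct (-0.72 with limma voom), Cox7b (0.14) and Sdha (0.12) with library totals, and at 46 days for Ndufb2 (-0.0641 with limma voom, -1.27 with library totals) and Ndufa13 (-0.91 with library totals, -0.0507 in libraries 1 to 10 alone, -0.0669 without TESA 2 and 12). At 46 days Atp5sl was at -0.99 with library totals, where the median of all features was -1.09, at -0.00116 with limma voom and at -0.33 in libraries 1 to 10 alone, where Ndufb2 was at 0.48. Limma voom gave 0.16 for Ndufa13 at 46 days, 0.43 for Ndufa4l2 and -0.13 for Atp5s, and library totals 0.47 for Ndufa4l2. Without TESA 3 and CTRL 4, Cycs was at -0.90, Sdha at -0.18 and Atp5sl at 0.55. With 1 library left out, values spanned -0.0127 to 0.60 for Ndufa4, -0.18 to 0.0177 for Sdha, -0.0718 to 0.33 for Atp5e, -0.11 to 0.23 for Cox7a2, -0.13 to 0.38 for Ndufa4l2, -0.00953 to 0.33 for Ndufb2 and -0.10 to 0.13 for Cox7b at 24 h, and -0.11 to 0.27 for Ndufb2 and -0.0258 to 0.67 for Ndufa13 at 46 days. The isoform differences spanned -0.92 to 0.43 (Cyct), -0.35 to 0.00540 (Cox6b2), -0.34 to 1.61 (Cox7b2) and -1.07 to -0.72 (Cox8c, exact permutation p from 0.0286 to 0.0857 before adjustment), and without TESA 3 and CTRL 4 Cox7b2 was at -0.72 and Cox6b2 at -0.04. With 1 added to each count they were -0.18 (Cyct), -0.13 (Cox6b2), 0.21 (Cox7b2) and -0.84 (Cox8c). The causes were not tested. Cyct, Cox7b2 and Cox7a1 had few counts. The isoform level ratio and its alternatives were not run. No paired analysis was possible because the groups compared share no replicate numbers.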
